A study of Mus musculus with 15 samples.

Results

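The genes described here encode the subunits of the oxidative phosphorylation system of the mitochondrion, measured in fibroblasts sorted from mouse lungs that were healthy or carried breast cancer metastases. Members were chosen by gene symbol, as every measured gene of the Ndufa, Ndufb, Ndufc, Ndufs, Ndufv, Sdha to Sdhd, Uqcr, Cox4 to Cox8 and Atp5 series, without the isoform Cox4i2 and the paralogue Ndufa4l2. The rule gave 79 of the 18193 genes on the arrays, namely 34 of complex I, 4 of complex II, 8 of complex III, 16 of complex IV and 17 of complex V, each read on the single-gene probe set with the highest mean level. The rule itself used no expression difference, although the members were chosen with earlier results of these data known. Ndufa4 was counted with complex I by its symbol, although its protein is now assigned to complex IV. The subunits encoded by mitochondrial DNA were not analysed here.

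All mice were female NSG mice, an immunodeficient strain without mature lymphocytes that keeps its myeloid cells, used at 6 to 8 weeks of age. They received the human breast cancer line MDA-MB-231 (MDA), or MDA-LM2, a subline of it that colonises the lung more readily, through the tail vein. Fibroblasts were isolated by flow cytometry, with PDGFRA or PDGFRB as positive markers and with CD45, CD11b, CD31 and EPCAM as negative markers. The 5 groups were healthy age-matched lungs, MDA micro and MDA-LM2 micro (week 1, micrometastases), and MDA macro and MDA-LM2 macro (week 3, macrometastases), with 3 arrays each, and each array held RNA of 1 to 3 pooled mice. Mice were picked for similar metastatic load in both lines, so load itself was not compared, and the healthy group was a single group for both weeks.

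Oxidative phosphorylation moves electrons from NADH (complex I, NADH dehydrogenase) and from succinate (complex II, succinate dehydrogenase) through complex III (the cytochrome bc1 complex) to complex IV (cytochrome c oxidase), which reduces oxygen. Complexes I, III and IV pump protons across the inner membrane, and complex V, the ATP synthase, uses their return to make ATP. Several subunits of complex IV exist as isoforms that are used in particular tissues, such as the heart and skeletal muscle forms, while the catalytic cores of most complexes have a single form.

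The subunit genes were well expressed and steady in these fibroblasts. Values are log2 of the normalised signal intensity, on which a difference of 1 is a doubling, and levels of different genes cannot be set against each other because every probe set binds with its own strength. Of the 79 genes, 72 lay above the median level of all genes, 8.12. Their standard deviation over the 15 arrays had a median of 0.202, against 0.272 for all genes. The widest were Cox8b (0.84), Cox6b2 (0.71) and Ndufb4 (0.69). Over all comparisons described here, 24 members passed the test at least once, 55 never did, and 0 passed it in opposite directions. The same count was not made over all genes, so these numbers have no background. The comparison of macro with micro, lines pooled, alone called 18.8% of all genes higher and 12.3% lower.

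The genes of the positive gate were bright and those of the negative gate mostly dim. Pdgfra, Pdgfrb and Col1a1 lay between 11.67 and 14.02 on all arrays, whereas Ptprc (CD45) lay between 6.26 and 6.57, Itgam (CD11b) between 5.53 and 6.63, Epcam between 6.47 and 6.71 and Pecam1 (CD31) between 6.89 and 8.27, in part above the median of all genes. Other signals moved with the stage. The summed intensity of 9 mitosis genes was 1025 to 1235 in healthy, 1145 to 1715 in micro and 4579 to 5545 in macro arrays. That of 5 mesothelial genes was 676 to 784 in healthy, 1315 to 2329 in MDA macro and 3303 to 3981 in MDA-LM2 macro arrays, and that of 10 leukocyte genes was 1485 to 1915, 2836 to 3065 and 3253 to 4301. The sum of 8 endothelial genes was 2014 to 2805, 1978 to 2396 and 3231 to 3414, with Kdr up by 3.09 and 4.33 and Tek at -2.23 and -2.50 in MDA macro and MDA-LM2 macro. That of 8 epithelial genes was 1331 to 3182, 2441 to 2871 and 3278 to 6389, with Krt18 up by 3.38 and 4.70 and Scgb1a1 at -2.20 and -2.91. The median difference over these 8 genes was 0.08 in MDA macro and -0.05 in MDA-LM2 macro. In MDA macro 2 were called higher and 0 lower (25% and 0%, against 8.43% and 6.8% of all genes). In MDA-LM2 macro 2 were called higher and 2 lower (25% each, against 13.6% and 8.98%). Of 9 fibroblast genes, 1 rose and 3 fell in MDA macro, and 1 rose and 4 fell in MDA-LM2 macro. In such bulk samples fewer cells of a type and less RNA per cell cannot be told apart, and the part of these signals in the results was not tested.

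At the micrometastatic stage no subunit gene passed the test in either line. In MDA micro against healthy fibroblasts, limma called 0 of 79 members higher and 0 lower at an adjusted p under 0.05 (n = 3 per group), where it called 0% of all genes in either direction. At an unadjusted p under 0.05 there were 2 members, both higher, 2.53% of the members against 8.48% of all genes. The members' median log2 difference was 0.09, against 0.00 over all genes, with 60 of 79 positive. In MDA-LM2 micro limma again called 0 higher and 0 lower (0.467% and 0.115% of all genes), with 15 members higher and 0 lower at an unadjusted p under 0.05 (19% of the members, against 12% of all genes). The median was 0.18, against 0.01 over all genes, and 66 of 79 were positive.

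The lowest adjusted p among the members in MDA-LM2 micro was 0.103, for Ndufb2, an accessory subunit of the membrane arm of complex I. It read 9.93, 9.67 and 9.61 in healthy, and 10.45, 10.51 and 10.31 in MDA-LM2 micro fibroblasts. The groups did not overlap, and the difference was 0.69 ± 0.13 (SE). Of the 15 members at an unadjusted p under 0.05, 11 belonged to complex I, which holds 34 of the 79 members. In 27 of the 79 members (34.2%) all MDA-LM2 micro arrays lay above all healthy arrays, against 10.1% of all genes, and in 2 members all lay below, against 8.37%. Between the lines at week 1, with MDA micro as the baseline, limma called 0 members higher and 0 lower (0.341% and 0.0715% of all genes), with a median of 0.10. At an unadjusted p under 0.05 there were 3 higher and 3 lower, together 7.59% of the members, against 11.7% of all genes.

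Of the 2 macrometastatic groups, MDA-LM2 showed the larger shift of the subunit genes. From MDA-LM2 micro to MDA-LM2 macro, however, the members' median difference was 0.04, against 0.06 over all genes. Against healthy fibroblasts 14 of 79 members rose (17.7%, against 13.6% of all genes) and 2 fell (2.53%, against 8.98%). The median log2 difference was 0.23, against 0.08 over all genes, and 67 members (84.8%) were positive, against 58.8% of all genes. In 39 members (49.4%) the 3 MDA-LM2 macro arrays lay above all healthy arrays, where 27.5% of all genes did, and in 8 (10.1%) they lay below, where 15.9% did. At an unadjusted p under 0.05 the counts were 30 higher and 3 lower, together 41.8% of the members, against 36.8% of all genes. The share called higher was thus near the background, while most single differences were small and upward. The count of 16 called members fell to 10 without healthy replicate 2, to 9 without healthy replicate 3, to 6 without MDA-LM2 macro replicate 1 and to 7 without MDA-LM2 macro replicate 2. Changes of processing with all arrays kept moved it between 10 and 22.

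**Figure D1:**
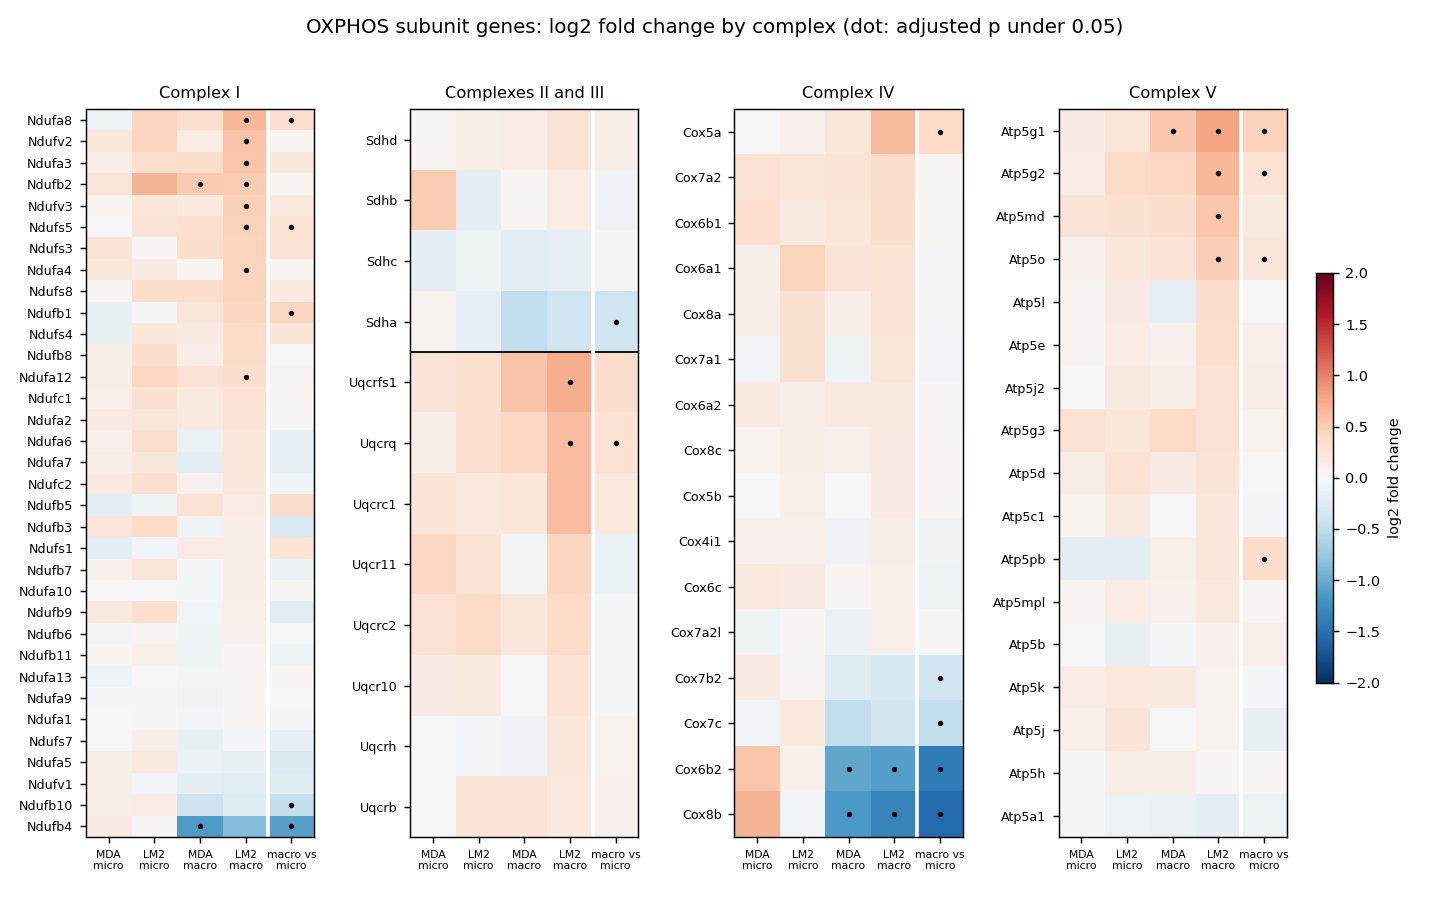
Log2 difference of each of the 79 members, ordered by complex, for the 4 metastatic groups against healthy fibroblasts and for macro against micro with the lines pooled, as colours on a scale that reaches 2 in both directions. Dots mark members called by limma at an adjusted p under 0.05. Called members are mostly upward in MDA-LM2 macro, with Cox8b and Cox6b2 downward at both macrometastatic groups.

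The members that rose belonged to complexes I, III and V, and no test set the complexes against each other. In complex I 8 of 34 members rose and 0 fell, 29 were positive and 17 lay wholly above healthy (median 0.22). In complex III 2 of 8 rose, all 8 were positive, from 0.19 to 0.72, and 4 lay wholly above (median 0.41). In complex V 4 of 17 rose, 16 were positive and 10 lay wholly above (median 0.26). In complex IV 0 of 16 rose and 2 fell, while 12 were positive and 8 lay wholly above (median 0.17). Complex II, the only complex that is also an enzyme of the tricarboxylic acid cycle, had 0 of 4 called in either direction, 2 positive and 0 wholly above (median -0.01). The array medians of all 79 members, taken as differences from the healthy mean, were 0.20, 0.27 and 0.21 in MDA-LM2 macro, and 0.21, 0.13 and 0.20 in MDA-LM2 micro. In MDA macro they were 0.03, 0.12 and 0.07. The ranges of MDA-LM2 macro and MDA macro did not overlap, and the medians of all genes were 0.06 to 0.10 and 0.03 to 0.06 in the same arrays.

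**Figure D2:**
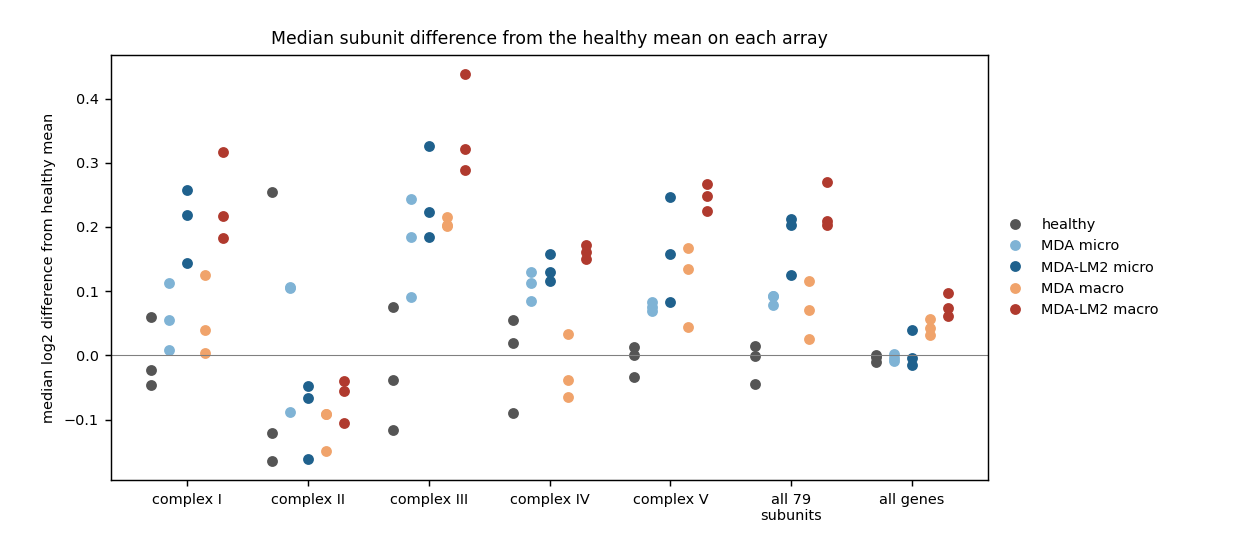
Median log2 difference from the healthy mean on each array, for the members of each complex, for all 79 members and for all genes, with 1 point per array. MDA-LM2 macro arrays lie between 0.20 and 0.27 for all members, and the MDA macro arrays between 0.03 and 0.12.

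A signal of RNA quality also moved with the groups. The difference between the 3′ and 5′ control probe sets of Gapdh, which grows as RNA is shortened, was 1.16 to 1.70 on the log2 scale in healthy, 1.37 to 1.44 in MDA micro, 1.18 to 1.24 in MDA-LM2 micro, 1.03 to 1.43 in MDA macro and 1.01 to 1.05 in MDA-LM2 macro arrays. The same difference for Actb stayed between -0.21 and -0.02 over all arrays. Its part in the members' differences was not tested.

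The promoters of the members that rose differ in what they carry, and windows of 300 bases, from 250 before the start site, are shown for 5 of them. These 5 were picked by name and do not represent all members that rose. All are in the GRCm38.p6 build from RefSeq, 5′ to 3′ on the gene's strand, and capitals mark a match on either strand to a core motif of a regulator of respiratory genes. The motifs were the NRF1 core GCATGCGC, the ETS or GABP core CCGGAAG, the YY1 core AAGATGGC and the ERR element AAGGTCA. None of these strings contains another. Atp5g1 (chr11:96075582-96075881, minus strand) holds none, Ndufa8 (chr2:36049289-36049588, minus strand) holds the NRF1 core, Atp5md (chr19:47090598-47090897, minus strand) the ETS or GABP core, Ndufa3 (chr7:3617123-3617422, plus strand) the YY1 core and Ndufs5 (chr4:123718137-123718436, minus strand) the ERR element.
Atp5g1: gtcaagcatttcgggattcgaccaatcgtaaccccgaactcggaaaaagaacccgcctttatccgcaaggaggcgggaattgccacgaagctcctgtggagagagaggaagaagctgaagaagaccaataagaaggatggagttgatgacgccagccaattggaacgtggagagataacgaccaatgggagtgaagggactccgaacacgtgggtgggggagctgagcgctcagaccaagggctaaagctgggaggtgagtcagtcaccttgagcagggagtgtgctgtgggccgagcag
Ndufa8: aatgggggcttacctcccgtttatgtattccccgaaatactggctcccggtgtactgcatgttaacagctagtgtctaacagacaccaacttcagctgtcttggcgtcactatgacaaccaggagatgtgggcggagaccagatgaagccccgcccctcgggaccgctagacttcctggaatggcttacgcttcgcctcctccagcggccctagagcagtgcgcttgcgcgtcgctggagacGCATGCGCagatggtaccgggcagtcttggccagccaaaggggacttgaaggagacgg
Atp5md: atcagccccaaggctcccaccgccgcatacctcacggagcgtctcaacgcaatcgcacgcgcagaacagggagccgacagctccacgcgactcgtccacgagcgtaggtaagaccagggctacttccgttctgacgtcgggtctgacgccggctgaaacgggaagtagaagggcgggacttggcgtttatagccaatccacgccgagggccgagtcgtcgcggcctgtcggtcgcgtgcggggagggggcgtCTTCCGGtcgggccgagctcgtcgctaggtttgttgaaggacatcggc
Ndufa3: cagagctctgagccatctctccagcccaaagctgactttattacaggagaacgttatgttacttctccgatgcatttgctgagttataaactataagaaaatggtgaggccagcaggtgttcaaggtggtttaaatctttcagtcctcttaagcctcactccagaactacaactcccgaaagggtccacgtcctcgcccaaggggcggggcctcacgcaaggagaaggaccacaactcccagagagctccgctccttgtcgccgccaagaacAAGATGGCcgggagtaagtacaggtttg
Ndufs5: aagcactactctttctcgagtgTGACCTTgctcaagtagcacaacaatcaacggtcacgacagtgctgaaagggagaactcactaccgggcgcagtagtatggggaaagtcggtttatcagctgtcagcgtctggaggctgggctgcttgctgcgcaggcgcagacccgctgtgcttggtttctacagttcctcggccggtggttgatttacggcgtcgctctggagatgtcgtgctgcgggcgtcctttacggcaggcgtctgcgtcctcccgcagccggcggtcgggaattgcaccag

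A window was found for 66 of the 79 members and for 14452 of all genes. The NRF1 core stood in 9 member windows (13.6%, against 4.68% of all windows), the ETS or GABP core in 17 (25.8%, against 15%), the YY1 core in 9 (13.6%, against 4.07%) and the ERR element in 8 (12.1%, against 4.61%). At least 1 of the 4 stood in 33 of the 66 member windows and in 25.4% of all windows. Among the members that rose in MDA-LM2 macro and are not shown, Atp5g2 holds the NRF1 core and Ndufb2 the ERR element. Atp5o, Ndufa12, Ndufa4, Ndufv2, Ndufv3 and Uqcrfs1 hold none, and Uqcrq has no window. The YY1 core was in 6 of 31 windows of complex I and 3 of 15 of complex V, and in none of the windows of complexes II, III and IV. A match describes the letters and does not show that a factor binds.

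The clearest rise was that of Atp5g1, 1 of 3 genes that encode the same mature c subunit of the ATP synthase rotor ring. It read 11.18, 11.21 and 11.25 in healthy fibroblasts, 11.14, 11.41 and 11.58 in MDA micro, and 11.60, 11.43 and 11.34 in MDA-LM2 micro. At week 3 it read 11.69, 11.78 and 11.76 in MDA macro and 11.95, 12.02 and 12.04 in MDA-LM2 macro. Both macro groups lay wholly above the healthy arrays, and the MDA-LM2 macro arrays wholly above all others. The difference from healthy was 0.80 ± 0.10 (SE, adjusted p = 0.00182) in MDA-LM2 macro and 0.54 ± 0.10 (adjusted p = 0.0161) in MDA macro. A second, dimmer probe set of Atp5g1 read -0.01 in MDA-LM2 macro and -0.12 in MDA macro, and the mean of both gave 0.21 in MDA macro (adjusted p = 0.190), where the call was lost in 4 of 14 alternatives.

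Of its paralogues, Atp5g2 rose in MDA-LM2 macro and Atp5g3 was not called. Atp5g2 read 10.69, 10.54 and 10.60 in healthy and 11.34, 11.37 and 11.13 in MDA-LM2 macro fibroblasts, without overlap, a difference of 0.67 ± 0.11 (adjusted p = 0.00723). Averaging all 3 of its probe sets reduced this to 0.02. Atp5g3 differed by 0.29 ± 0.10 (adjusted p = 0.0902). A stalk and a membrane subunit rose as well, Atp5o, the protein that joins the peripheral stalk to the catalytic head, by 0.49 ± 0.10 (adjusted p = 0.0133), and Atp5md, a small membrane subunit, by 0.56 ± 0.12 (adjusted p = 0.0156). Atp5o read 11.43 to 11.50 in healthy and 11.91 to 11.99 in MDA-LM2 macro arrays, and Atp5md 10.69 to 10.94 and 11.26 to 11.45. The genes of the catalytic head itself differed little, with Atp5a1 (the alpha subunit) at -0.20 and Atp5b (the beta subunit) at 0.09, both not called.

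In complex III the gene of the Rieske iron-sulphur protein, Uqcrfs1, which passes electrons to cytochrome c1, gave the largest difference. It read 9.22, 8.80 and 9.38 in healthy and 10.04, 9.57 and 9.95 in MDA-LM2 macro fibroblasts, a rise of 0.72 ± 0.19 (adjusted p = 0.0368) without overlap. In MDA macro it read 9.67, 9.93 and 9.53, which was 0.57 ± 0.19 above healthy and missed the threshold (adjusted p = 0.0807). Uqcrq, a small subunit of the same complex, rose by 0.62 ± 0.15 in MDA-LM2 macro (adjusted p = 0.0216), from 10.72 to 11.11 in healthy to 11.37 to 11.58. This Uqcrq probe set can bind related transcripts, and the next brightest Uqcrq probe set without that mark gave -0.12. The core subunit gene Uqcrc1 differed by 0.62 ± 0.27 (adjusted p = 0.143), and MDA-LM2 macro replicate 2, at 11.07, stood apart from the other 2 arrays of its group.

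In complex I the 8 members that rose were 1 core subunit and 7 accessory ones. The core subunit, Ndufv2, carries an iron-sulphur cluster in the NADH-oxidising module. It read 10.80, 10.61 and 10.65 in healthy, 11.06, 11.16 and 11.12 in MDA-LM2 micro and 11.20, 11.32 and 11.26 in MDA-LM2 macro fibroblasts, and the last differed from healthy by 0.57 ± 0.11 (adjusted p = 0.00996). Both MDA-LM2 groups lay above the healthy and MDA macro arrays (10.77, 10.88 and 10.85). The other core subunits were not called, among them Ndufs1 at 0.13 and Ndufv1 at -0.22, Ndufv1 being the partner of Ndufv2 that binds NADH.

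Ndufa8, an accessory subunit on the intermembrane side, was the largest of the 7. It read 10.35, 10.67 and 10.32 in healthy, 10.87, 11.09 and 10.66 in MDA-LM2 micro and 11.37, 11.04 and 10.92 in MDA-LM2 macro fibroblasts, a difference of 0.66 ± 0.16 at the macro stage (adjusted p = 0.0258). The other 6 were Ndufa3 (0.55), Ndufb2 (0.51), Ndufv3 (0.47), Ndufs5 (0.46), Ndufa4 (0.44) and Ndufa12 (0.35), with adjusted p from 0.0216 to 0.0377, and in each of them the groups did not overlap. For Ndufs5 the healthy arrays read 7.84 to 7.90 and the MDA-LM2 macro arrays 8.25 to 8.44. This probe set was dim, with a mean below the median of all genes. The brighter probe set that also binds the copy Ndufs5-ps differed by 0.40 without overlap and was not called (adjusted p = 0.143). Ndufb2 had a further probe set with a difference of -0.19.

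These calls differed in how far they held when the processing was changed. Over 14 alternatives (13 for Ndufs5) Atp5g1 and Atp5o kept their call in all, Atp5g2 and Ndufv2 lost it in 1 and Atp5md in 2. The other 9 members that rose in MDA-LM2 macro lost it in 4 to 10, with Ndufa12 losing it most often.

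**Figure D3:**
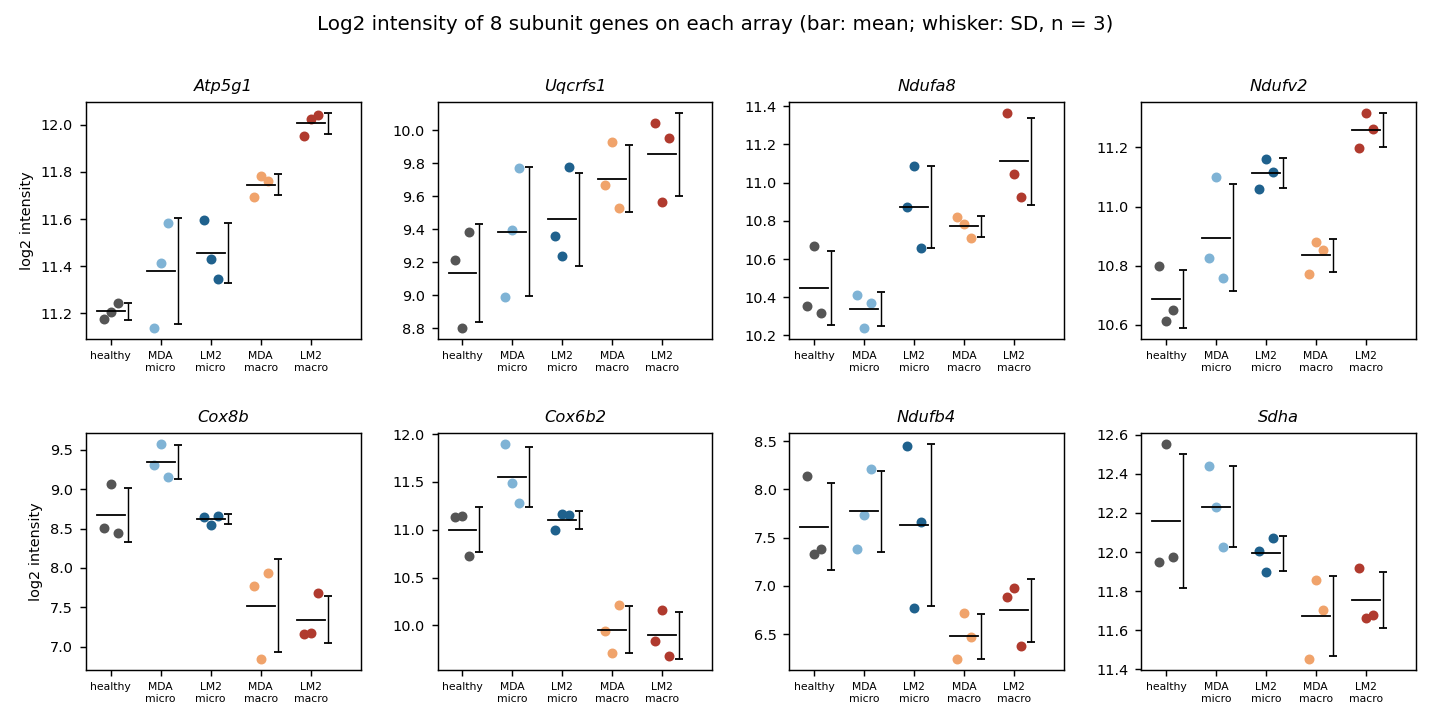
Log2 intensity of 8 members on each of the 15 arrays, by group, with 1 point per array, a bar at the group mean and a whisker for the SD (n = 3). Atp5g1 lies between 11.95 and 12.04 in MDA-LM2 macro against 11.18 to 11.25 in healthy fibroblasts, while Cox8b and Cox6b2 are lowest in the macro groups.

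In MDA macro fibroblasts fewer members changed, with both directions among them. Against healthy, 2 of 79 rose (2.53%, against 8.43% of all genes) and 3 fell (3.8%, against 6.8%). The median was 0.09, against 0.05 over all genes, with 47 positive (59.5%, against 56.0% of all genes). At an unadjusted p under 0.05 there were 12 higher and 5 lower, together 21.5% of the members, against 30.8% of all genes. The members that rose were Atp5g1 and Ndufb2 (0.53 ± 0.13, adjusted p = 0.0364), and those that fell were Cox6b2, Ndufb4 and Cox8b. The Ndufb2 call was lost in 7 of 14 alternatives, a further probe set read -0.27, and the mean of its probe sets gave 0.21 (adjusted p = 0.235). The count of 5 fell to 3 without any 1 of the healthy replicates and to 2 without MDA macro replicate 1 or 2. Complex III had the largest median of the complexes here too (0.22), with 0 called.

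Ndufb4, an accessory subunit of complex I, read 8.14, 7.32 and 7.38 in healthy fibroblasts and 6.25, 6.72 and 6.47 in MDA macro. All MDA macro arrays lay below all healthy arrays, a fall of 1.14 on the log2 scale (SE 0.24, adjusted p = 0.0218). In MDA-LM2 macro it read 6.89, 6.98 and 6.37, a difference of -0.87 ± 0.26 (adjusted p = 0.0520). This probe set was dim, below the median of all genes. The brighter probe sets that also bind the copies Ndufb4b and Ndufb4c differed by -0.35 and -0.24 in MDA macro and by -0.29 and 0.06 in MDA-LM2 macro, none of them called. Between the stages both were lower in MDA macro than in MDA micro without overlap (-0.72 and -0.54, adjusted p = 0.0662 and 0.0845), and with the lines pooled the first was called lower (-0.51, adjusted p = 0.0189).

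In MDA-LM2 macro the largest falls were those of 2 tissue isoforms of complex IV, Cox8b and Cox6b2. In MDA macro Ndufb4 (-1.14) lay between these 2. Cox8b is the heart and skeletal muscle isoform of subunit 8, and Cox6b2 is the isoform of subunit 6b that is best known from testis. Their promoters are shown because they hold few CpG pairs, which is not particular to them. Cox7a1 held 7 and Ndufc2 held 8 and were called in no comparison, and Cox7b2, called lower only in the pooled stages, held 10. Neither holds any of the 4 motifs, and CpG pairs, which are dense in promoters of widely used genes, number 2 in the window of Cox8b (chr7:140900397-140900696, minus strand) and 10 in that of Cox6b2 (chr7:4753045-4753344, minus strand), against a median of 19 over the member windows and 18 over all windows, in the GRCm38.p6 build from RefSeq.
Cox8b: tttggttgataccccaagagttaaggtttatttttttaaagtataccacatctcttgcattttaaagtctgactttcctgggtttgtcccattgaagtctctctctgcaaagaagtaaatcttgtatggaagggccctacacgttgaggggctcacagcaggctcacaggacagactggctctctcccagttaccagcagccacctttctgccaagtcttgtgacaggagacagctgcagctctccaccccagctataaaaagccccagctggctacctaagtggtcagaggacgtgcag
Cox6b2: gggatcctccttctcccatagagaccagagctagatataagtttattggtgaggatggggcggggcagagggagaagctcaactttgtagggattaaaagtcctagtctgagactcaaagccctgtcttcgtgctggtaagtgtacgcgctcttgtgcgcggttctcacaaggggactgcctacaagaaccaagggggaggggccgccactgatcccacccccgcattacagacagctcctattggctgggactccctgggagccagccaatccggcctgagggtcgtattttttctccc

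Cox6b2 read 11.13, 11.14 and 10.73 in healthy, 11.90, 11.49 and 11.28 in MDA micro, and 10.99, 11.16 and 11.15 in MDA-LM2 micro fibroblasts. At week 3 it read 9.94, 9.71 and 10.21 in MDA macro and 9.83, 10.16 and 9.68 in MDA-LM2 macro. Every macro array lay below every healthy and micro array. Against healthy it fell by 1.04 (SE 0.18, adjusted p = 0.0101) in MDA macro and by 1.11 (SE 0.18, adjusted p = 0.00551) in MDA-LM2 macro, and it kept its call in all 14 alternatives of both comparisons.

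Cox8b read 8.51, 9.06 and 8.45 in healthy, 9.31, 9.58 and 9.15 in MDA micro, and 8.65, 8.55 and 8.67 in MDA-LM2 micro fibroblasts. In MDA macro it read 7.78, 6.84 and 7.93, and in MDA-LM2 macro 7.17, 7.18 and 7.68. All macro arrays again lay below all others. The fall from healthy was 1.33 (SE 0.22, adjusted p = 0.00603) in MDA-LM2 macro, kept in all 14 alternatives, and 1.16 (SE 0.31, adjusted p = 0.0461) in MDA macro, lost in 7 of 14 with an adjusted p of up to 0.117. Both genes have a single probe set.

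The ubiquitous isoforms of the same subunits were not called. In MDA-LM2 macro against healthy, Cox8a differed by 0.26 ± 0.11 (adjusted p = 0.133) and Cox6b1 by 0.35 ± 0.12 (adjusted p = 0.0882). In MDA macro they differed by 0.12 and 0.22. The other muscle isoforms among the members gave 0.17 for Cox6a2 and 0.25 for Cox7a1 in MDA-LM2 macro and 0.19 and -0.10 in MDA macro, none called. Outside the members, Cox4i2, the isoform of subunit 4 known from lung and induced at low oxygen, fell further. It read 11.57, 10.73 and 11.16 in healthy, 9.42, 9.04 and 9.57 in MDA macro, and 8.11, 8.27 and 8.71 in MDA-LM2 macro fibroblasts, without overlap. The differences from healthy were -1.81 (adjusted p = 0.00362) and -2.79 (SE 0.25, adjusted p = 0.000558), while Cox4i1, the common form, differed by -0.08 and 0.12.

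**Figure D4:**
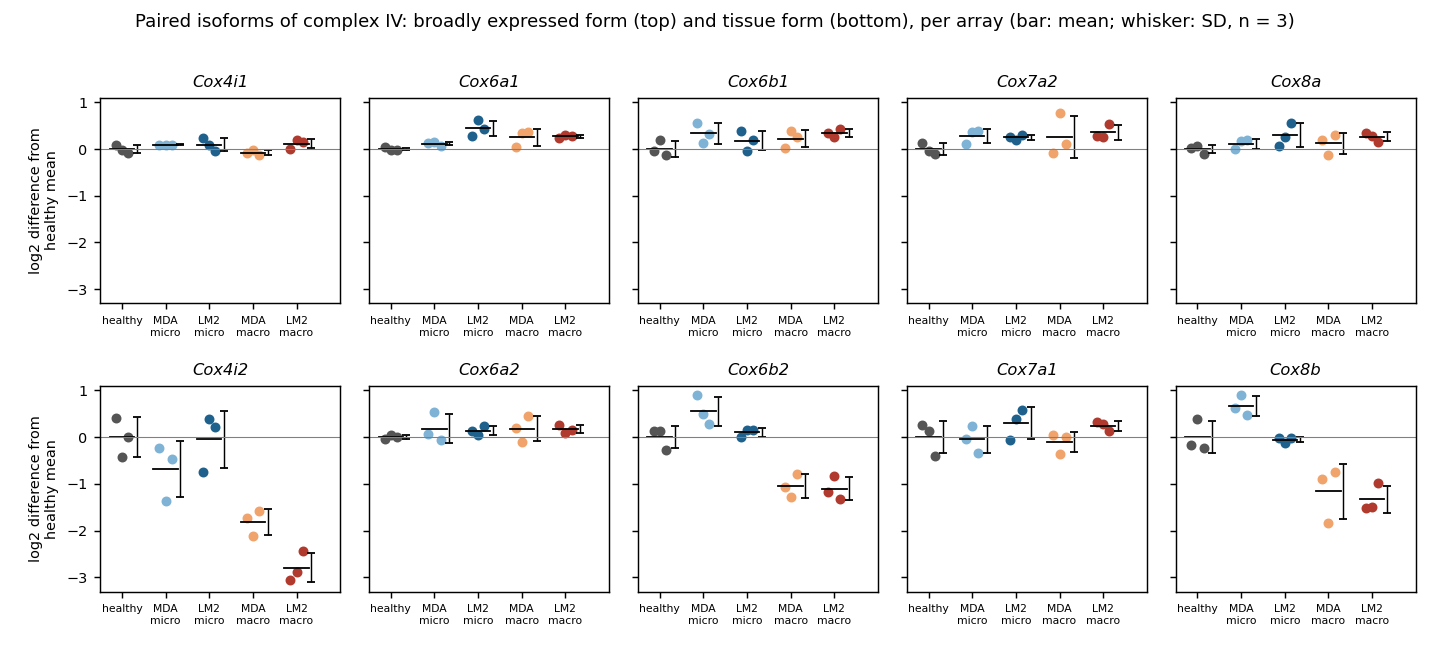
Log2 difference from the healthy mean on each array for the common and the tissue isoform of 5 subunits of complex IV, with 1 point per array, a bar at the group mean, a whisker for the SD (n = 3) and the groups along the x axis. The tissue isoforms Cox4i2, Cox6b2 and Cox8b drop in both macro groups, while Cox6a2 and Cox7a1 were called in neither.

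Genes of muscle and fat were read as well, while no list covered testis. Over 8 striated muscle genes the summed intensity was 2508 to 4277 in healthy, 3411 to 4295 in MDA micro, 8128 to 9278 in MDA-LM2 micro, 1758 to 1964 in MDA macro and 1877 to 2264 in MDA-LM2 macro arrays. Actc1, the cardiac actin, read 10.41 to 11.55 in healthy, 12.72 to 12.94 in MDA-LM2 micro and 8.81 to 9.76 in the macro arrays, and Myh6, the cardiac myosin heavy chain, 6.32 to 7.40 on all arrays. The sum mostly followed Actc1. The median log2 difference from healthy over the list was 0.24 in MDA-LM2 micro, 0.17 in MDA macro and 0.14 in MDA-LM2 macro. Of the 8 genes, 0 were called higher and 2 lower in MDA macro (0% and 25%, against 8.43% and 6.8% of all genes). In MDA-LM2 macro 1 was called higher and 1 lower (12.5% each, against 13.6% and 8.98% of all genes). Over 8 smooth muscle and pericyte genes the sum was 12318 to 18246 in healthy, 37238 to 38440 in MDA-LM2 micro, 20439 to 23058 in MDA macro and 17953 to 19590 in MDA-LM2 macro arrays. In MDA-LM2 micro 5 of these 8 were called higher and 0 lower (62.5% and 0%, against 0.467% and 0.115% of all genes). At the macro stage they went both ways. In MDA macro 3 were called higher and 1 lower (37.5% and 12.5%), and in MDA-LM2 macro 2 higher and 3 lower (25% and 37.5%). Over 4 fat genes the sum was 490 to 656 in healthy, 1212 to 1297 in MDA-LM2 micro, 495 to 1026 in MDA macro and 1000 to 1275 in MDA-LM2 macro arrays. Fabp4, a fatty acid binding protein, rose by 1.68 in MDA-LM2 micro and by 1.47 in MDA-LM2 macro, and Ucp1, the uncoupling protein of brown fat, by 0.54 in MDA macro, while Cidea and Adipoq were not called. The muscle sums were highest in MDA-LM2 micro, where Cox8b and Cox6b2 were at the healthy level (-0.05 and 0.10), and their part in the fall was not tested.

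The comparison of the 2 lines at the macro stage asked whether fibroblasts of the more metastatic line differed. Between MDA-LM2 macro and MDA macro limma called 0 members higher and 0 lower, against 0% and 0.011% of all genes. At an unadjusted p under 0.05 there were 11 higher and 0 lower (13.9% of the members, against 10.2% of all genes). The median was 0.13, against 0.03 over all genes, and 65 of 79 were positive (82.3%), against 56.8% of all genes. In 26 members (32.9%) the MDA-LM2 macro arrays lay wholly above the MDA macro arrays, against 9.72% of all genes, and in 0 members wholly below, against 6.43%.

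Among the largest of these differences were Atp5l, the g subunit of the ATP synthase membrane part, at 0.51 ± 0.14 (adjusted p = 0.280), Uqcr11, the smallest subunit of complex III, at 0.45 ± 0.15 (adjusted p = 0.357), and Ndufv2 at 0.42 ± 0.10 (adjusted p = 0.214, the lowest among the members). Cox5a, a subunit of complex IV, differed by 0.42 ± 0.10 (adjusted p = 0.228). It read 11.50, 11.56 and 11.39 in MDA macro and 11.91, 11.88 and 11.91 in MDA-LM2 macro fibroblasts, without overlap. Against healthy Cox5a was 0.64 ± 0.22 higher in MDA-LM2 macro and missed the threshold (adjusted p = 0.0759), with healthy arrays that spread over 11.17, 11.75 and 10.86. Its 2 other probe sets, which can bind related transcripts, were called there, at 0.90 and 0.86.

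Between the stages, members changed in both directions. With the lines pooled, 9 members were higher at macro than at micro (11.4%, against 18.8% of all genes) and 7 were lower (8.86%, against 12.3%). The median was 0.02, against 0.05 over all genes, and both shares were below the background. Within MDA 1 member rose and 4 fell (10.4% and 7.95% of all genes), and within MDA-LM2 2 rose and 2 fell (9.25% and 6.38%). The MDA count of 5 fell to 3 without any 1 of the MDA micro replicates, or without MDA macro replicate 1 or 2. Cox6b2 and Cox8b fell in both lines, with differences of -1.60 and -1.83 in MDA (adjusted p = 0.00213 and 0.00524) and of -1.21 and -1.28 in MDA-LM2 (adjusted p = 0.00242 and 0.00265).

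The members that rose from micro to macro in the pooled fit belonged to complexes I, III, IV and V. They were Atp5g1 (0.46), Ndufb1 (0.41), Cox5a (0.40), Atp5pb (0.34), Ndufa8 (0.33), Uqcrq (0.29), Atp5g2 (0.28), Ndufs5 (0.27) and Atp5o (0.23), with adjusted p from 0.00191 to 0.0301. Atp5pb, the b subunit of the peripheral stalk, read 10.73 to 10.97 over the 6 micro arrays and 11.07 to 11.31 over the 6 macro arrays, without overlap. Cox5a read 11.15 to 11.39 at micro and 11.39 to 11.91 at macro. The Ndufb1 probe set was dim, with a mean of 7.35, below the median of all genes. The brighter probe set shared by Ndufs5 and Ndufs5-ps differed by 0.14 in the pooled fit and was not called (adjusted p = 0.394).

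Besides Cox8b and Cox6b2, those that fell were Ndufb4 by 1.09, Cox7c by 0.50, Ndufb10 by 0.47, Sdha by 0.40 and Cox7b2 by 0.39 on the log2 scale, with adjusted p from 0.00294 to 0.0191. The Cox7c probe set was dim and can bind related transcripts, and the one without that mark gave -0.14 (adjusted p = 0.404). That of Cox7b2 was the dimmest of all members, with a mean of 6.04. Ndufb10, an accessory subunit of complex I, read 11.34 to 11.71 at micro and 10.88 to 11.27 at macro, without overlap. Sdha, the flavoprotein that oxidises succinate, was the only member of complex II to be called. It read 12.44, 12.23 and 12.02 in MDA micro, 12.01, 11.90 and 12.07 in MDA-LM2 micro, 11.45, 11.86 and 11.71 in MDA macro and 11.92, 11.66 and 11.68 in MDA-LM2 macro. The lowest micro array (11.90) and the highest macro array (11.92) overlapped, and the Sdha probe set without risk of related transcripts gave 0.05 in the same fit.

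The test of whether the change between stages differed between the lines called 0 members higher and 0 lower (0.154% and 0.412% of all genes). At an unadjusted p under 0.05 there were 5 members, all with a more positive change in MDA-LM2 (6.33% of the members, against 11.5% of all genes). They were Sdhb (0.82), Uqcr11 (0.58), Ndufa4 (0.46), Atp5l (0.40) and Cox5a (0.32), with adjusted p of 0.300 or more. Sdhb, the iron-sulphur subunit of complex II, read 11.95 in MDA micro replicate 2, while the other 14 arrays lay between 10.30 and 11.20.

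Genes around the complexes were read on fixed lists, with called counts for MDA-LM2 macro against healthy first and MDA macro second. All genes were called higher at 13.6% and 8.43%, and lower at 8.98% and 6.8%, and no list was tested against them. Of 68 genes of the mitochondrial ribosome, which makes the subunits encoded in the organelle, 14 rose and 0 fell (20.6% higher), and 3 rose and 0 fell (4.41% higher, below the share of all genes). Their median was 0.23 in MDA-LM2 macro, as for the subunit genes, with Mrps34 (1.19), Mrpl17 (1.00) and Mrpl52 (0.85) among the largest. Of 6 genes for exchange of adenine nucleotides and phosphate, 3 rose and 0 fell, and 2 rose and 0 fell. They include Slc25a5 (0.85 in MDA-LM2 macro), which trades ADP for ATP, and Slc25a3 (0.66), which imports phosphate. Cycs, the electron carrier cytochrome c, rose by 0.70 ± 0.10 (adjusted p = 0.00294) and by 0.60.

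The shares of assembly factors called were below those of all genes. Over all 42, 4 were higher and 2 lower in MDA-LM2 macro (9.52% and 4.76%), and 2 higher and 1 lower in MDA macro. By list, the MDA-LM2 macro counts were 0 higher and 1 lower of 13 for complex I, with Ndufaf4 at -0.77 in MDA-LM2 macro, and 2 higher and 0 lower of 10 for complexes II and III, with Uqcc2 at 0.63. For complex IV they were 2 higher and 1 lower of 15, with Cox18 at 0.81 and Surf1 at -0.59, and for complex V 0 of 4. In MDA macro these lists gave 0 and 0, 1 and 0, 1 and 1, and 0 and 0. Of 16 genes of the tricarboxylic acid cycle, 1 rose and 0 fell, Mdh2 by 0.47, and in MDA macro 0 rose and 1 fell. Of 15 genes that control mitochondrial biogenesis 2 rose and 0 fell in each macro group. Those in MDA-LM2 macro were Polg2 (0.88), an accessory subunit of the mitochondrial DNA polymerase, and Gabpb1 (0.76), a subunit of the factor that binds the GABP motif. Nrf1 (0.05), Tfam (0.11) and Ppargc1a (-0.41) were not called.

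Several glycolysis genes changed at the macro stage. Of 13 measured, 5 rose and 1 fell in MDA-LM2 macro, and 2 rose and 1 fell in MDA macro. In MDA-LM2 macro Slc16a3, a lactate exporter, rose by 1.75, Hk2, a hexokinase, by 1.59 and Ldha, a lactate dehydrogenase, by 1.02, while Pfkm, the muscle phosphofructokinase, fell by 0.67. The median over the list was 0.48 in MDA-LM2 macro and 0.38 in MDA macro, and the difference between this list and the subunit genes was not tested.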

How the data were processed

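Fibroblast RNA was amplified and hybridised to Affymetrix mouse expression arrays, 15 in 5 groups of 3. The deposited values are linear signal intensities that the authors obtained by RMA in Chipster, with a lowest value per array of 31.0 to 35.2. They were converted to log2 without further normalization. Arrays give no read depth, and their number limits the precision. Of 45100 probe sets, 34944 with a single symbol gave 18193 genes, the probe set with the highest mean being used for each gene. Comparisons used limma 3.58.1 in R 4.3.3 (lmFit and eBayes, two-sided) on the arrays of the groups compared, and on 12 arrays for pooled stage and interaction, with Benjamini-Hochberg adjustment over all 18193 genes and calls at 0.05. Scripts were tested on simulated data. Members and lists were chosen with earlier results of these data known. All members called in any comparison are named. Promoters and coordinates came from RefSeq (GRCm38.p6), where 79 of 79 members matched. Alternatives were 1 fit of all arrays, a replicate block, quantile normalization, median centring, 32 added before log2, a level filter, other probe set rules and leaving out each array. Replicates were labelled as biological, each of 1 to 3 mice. Probe sets with several symbols entered no comparison of members.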

Additional observations from a re-analysis of the deposited data

Results flagged for a closer look

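Cox6b2 and Cox8b lay on opposite sides of the healthy arrays at the 2 stages of MDA. Every MDA micro array was above every healthy array (0.55 and 0.67 on the log2 scale, adjusted p = 0.547 and 0.493) and every MDA macro array below (-1.04 and -1.16). The difference itself was tested as MDA macro against MDA micro, where limma called both lower, at -1.60 and -1.83.

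Some probe sets that bind a member together with another gene, and were used in no comparison above, were called higher than in healthy fibroblasts. The probe set of Ndufa13 and Yjefn3 read 0.56 in MDA macro and 0.64 in MDA-LM2 macro (adjusted p = 0.0417 and 0.00807), while the probe set of Ndufa13 alone read 0.05 in MDA-LM2 macro. The probe set of Ndufa11 and its copy Ndufa11b read 0.54 in MDA-LM2 macro (adjusted p = 0.0256), and that of Ndufb2 and Adck2 read 0.55 (adjusted p = 0.0182). Of 9 such probe sets, 3 were called higher and 0 lower in MDA-LM2 macro.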

How the results depend on the processing

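For the 5 comparisons with members called, 55 of 76 counts under alternative settings stayed within 1.5 times the reported count. For MDA macro against healthy the 5 calls (2 higher, 3 lower) became 8 with all 15 arrays in 1 fit, 8 with the mean of all probe sets, 1 with a replicate block and 2 to 4 with 1 array left out. For MDA-LM2 macro against healthy the 16 calls (14 higher, 2 lower) became 10 (7 higher, 3 lower) with the replicate block and 6 to 12 with 1 array left out. They became 21 (19 higher, 2 lower) with all 15 arrays in 1 fit, and also with 32 added before log2. With the mean of all probe sets they became 22 (18 higher, 4 lower). For MDA macro against MDA micro the 5 became 9, 10 and 3 with all arrays in 1 fit, all probe sets and the block, and 3 to 4 with 1 array left out, with 0 higher and 5 lower after median centring. For MDA-LM2 macro against micro the 4 became 3 to 5, and for the pooled stages the 16 became 13 to 17 with 1 array left out. In the other 5 comparisons the count of 0 stayed at 0, which says nothing of stability. Median centring turned the pooled split from 9 higher and 7 lower to 5 and 11, and the pooled median from 0.02 to -0.03. Same-numbered arrays did not deviate together (30 pairs, correlation -0.07 to 0.07). No pairing by replicate number was thus seen, though this cannot exclude that such arrays were handled together. Uqcrq turned to -0.12 in MDA-LM2 macro and -0.0067 in the pooled stages, and Sdha to 0.053 there, on probe sets without the suffix for related transcripts. Atp5g2 turned to -0.15 in the pooled stages with the mean of all probe sets. The cause was not tested.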

Other observations

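Some members had 1 array far from the rest. Sdhc read 12.23 in healthy replicate 2 against 10.86 to 11.34 on the other 14 arrays, and Sdha 12.55 there. Uqcrc1 read 11.07 in MDA-LM2 macro replicate 2 against 9.70 to 10.25 elsewhere. Groups of 3 arrays were not tested for such values.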
